A study of Mus musculus with 6 samples.

Results

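Chemokine receptors are cell-surface proteins that let leukocytes sense chemokines, small secreted proteins that guide cell movement. Transcripts of 7 such receptors, Cx3cr1, Ccr1, Ccr2, Ccr6, Ccrl2, Cxcr2 and Cxcr4, were followed in sorted mouse microglia, the resident macrophages of the brain. They were chosen by name, to set the microglial receptor Cx3cr1 beside receptors known from monocytes and neutrophils, and are 7 of the 49585 genes in the count files. The 6 bulk RNA sequencing libraries comprise 3 of wild-type animals (WT) and 3 of animals labelled IRF8KO, that is, with the transcription factor gene Irf8 knocked out. Both groups were male and aged 3 months, and in both the microglia were prepared without enzymes and then collected in TRIzol by flow sorting. The mouse strain, the knockout allele and the sorting gate are not given in the sources used here. The labels do not spell out that each library is a separate mouse, so p-values measure the spread between these libraries.

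Most chemokine receptors couple to inhibitory G proteins and turn a gradient of ligand into directed movement. Cx3cr1 binds fractalkine (Cx3cl1), which neurons make, and is widely used as a microglial marker. Ccr2 draws monocytes out of the bone marrow and Cxcr2 guides neutrophils. Ccrl2 is atypical: it binds the attractant chemerin without classical G-protein signalling. IRF8 drives the development of monocytes and dendritic cells and restrains that of neutrophils.

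Gene counts per library ranged from 3658917 to 11098363. The targeted gene, Irf8, was counted in every library, at 795, 851 and 1400 CPM in WT replicates 1, 2 and 3 and at 743, 650 and 850 CPM in the libraries labelled IRF8KO. It was not called (log2 fold change −0.44, adjusted p = 0.37 by edgeR with Benjamini-Hochberg adjustment). Whole-gene counts therefore did not check the genotype, and each direction below rests on the labels. CPM are counts per 1000000 scaled by the TMM method, and Apoe alone took 25.5% to 33.7% of the gene counts in the IRF8KO libraries. Of 10 microglial markers, all 10 were detected in the WT libraries and 9 in each IRF8KO library, where Sall1 was at 0. Some libraries stood apart. WT replicate 3 had 847 CPM summed over 13 immediate early genes, which respond to cell handling, against 5820 and 11100 in WT replicates 1 and 2 and 795 to 1060 in IRF8KO. IRF8KO replicate 2 carried neutrophil granule transcripts at levels far above the others, described with Cxcr2.

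Cx3cr1 fell in IRF8KO, Cxcr2 appeared there from no counts in WT, and Ccrl2 showed no called difference. Ccr1 was lower in each IRF8KO library than in every WT library but missed the threshold, and Ccr2, Ccr6 and Cxcr4 did not pass the expression filter. All 7 members had at least 1 count in some library, and 4 of the 7 passed the expression filter. Of these 4, 1 was called lower and 1 higher by the edgeR quasi-likelihood test, at an adjusted p (Benjamini-Hochberg) under 0.05. Among all 11041 tested genes 19.1% were called, 9.46% lower and 9.64% higher in IRF8KO. Cxcr2 passed the filter through the IRF8KO libraries alone, so the count says nothing of the members as a set. With library size in place of TMM scaling, the share of higher calls among all called genes went from 50.5% to 25.4% and the median log2 fold change over every tested gene from −0.11 to −0.61. The 2 member calls and their directions were the same under that scaling, though the direction of Cxcr2 was fixed by its lack of WT counts.

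**Figure D1:**
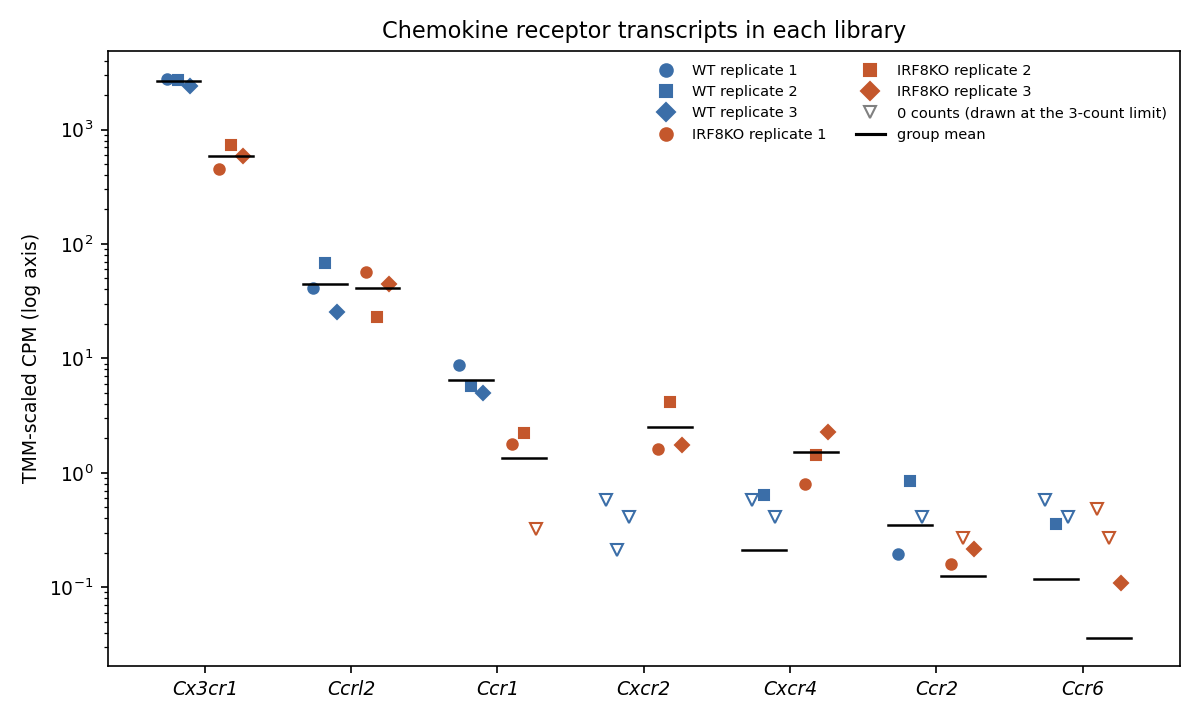
TMM-scaled CPM (log axis) of the 7 receptor transcripts in each of the 3 WT and 3 IRF8KO libraries. Bars are group means and open triangles are libraries with 0 counts, drawn at the 3-count limit. Cx3cr1 is separated between groups at 2400 to 2780 against 452 to 729 CPM, Ccrl2 overlaps, and Cxcr2 has counts only in the IRF8KO libraries.

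Set against each other per kilobase of exon, the members covered a wide range of levels. In WT the order of mean levels was Cx3cr1 (584 ± 45.6 CPM per kb, SD, n = 3), Ccrl2 (17.4 ± 8.45), Ccr1 (2.29 ± 0.707), Cxcr4 (0.117 ± 0.203), Ccr2 (0.0515 ± 0.0659) and Ccr6 (0.0509 ± 0.0881), with Cxcr2 at 0 counts. The last 4 of that order did not differ beyond their spread. In IRF8KO the order was Cx3cr1 (131 ± 30.7 CPM per kb), Ccrl2 (16.0 ± 6.60), Cxcr4 (0.833 ± 0.409), Cxcr2 (0.817 ± 0.466), Ccr1 (0.472 ± 0.417), Ccr2 (0.0186 ± 0.0166) and Ccr6 (0.0156 ± 0.0270). There Cxcr4, Cxcr2 and Ccr1 lay within each other's spread. The mean level of Cx3cr1 was 33.6 times that of Ccrl2 in WT and 8.19 times in IRF8KO. Cx3cr1 thus led in both groups, by a smaller margin in IRF8KO.

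Cx3cr1 (ENSMUSG00000052336, chromosome 9, 119901616 to 120069879, minus strand, GRCm38) encodes the fractalkine receptor. It had 14273, 38407 and 17381 counts in WT replicates 1, 2 and 3, and 2816, 8118 and 5407 in IRF8KO replicates 1, 2 and 3. Scaled, these were 2780, 2720 and 2400 CPM against 452, 729 and 586 CPM. The WT libraries lay close together, and the highest IRF8KO library stayed below the lowest WT library. The level was 4.47-fold lower in IRF8KO, from 2630 ± 205 to 589 ± 138 CPM (SD, n = 3). The log2 fold change was −2.16 (SE 0.33, 95% interval −2.88 to −1.44) and the adjusted p 9.6e-04 (edgeR, Benjamini-Hochberg). The transcript was reduced and still abundant: by level per kilobase Cx3cr1 ranked 37, 42 and 70 among all genes in WT replicates 1, 2 and 3, and 525, 213 and 379 in the IRF8KO libraries.

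As a share of all gene counts, with no scaling, Cx3cr1 took 0.390% in WT replicate 1 (exact 95% binomial interval 0.384% to 0.397%), 0.354% in WT replicate 2 (0.350% to 0.357%) and 0.219% in WT replicate 3 (0.216% to 0.223%). In IRF8KO the shares were 0.0313% (0.0302% to 0.0325%) in replicate 1, 0.0746% (0.0730% to 0.0762%) in replicate 2 and 0.0487% in replicate 3. The intervals of the groups did not overlap, but neither did those of WT replicates 1 and 3. Each covers counting error within 1 library and leaves out the spread between libraries. The library kit has no molecular identifiers, so repeat reads of 1 molecule cannot be told apart. Reads on either strand of Cx3cr1 moved alike, with log2 fold changes of −2.04 and −2.25. Of all gene counts by strand, 49.84% to 50.34% fell on 1 strand in each library. The strands thus split the same reads and are no separate check. Of the 10 microglial markers, 4 were called lower and 1 higher (edgeR, Benjamini-Hochberg), with a median log2 fold change of −0.90. Over all tested genes, 9.46% were called lower and 9.64% higher, and the median was −0.11. Summed over the 10 markers, the level was 42000, 46600 and 69600 CPM in WT and 47000, 32900 and 35100 CPM in IRF8KO, so the groups overlapped in the sum, most of which was Csf1r and Tmem119, neither of them called. Bulk counts cannot tell fewer cells with the transcript from less transcript per cell. The genes closest to Cx3cr1 in pattern over the 6 libraries, by Pearson correlation of log2 CPM among 6052 genes, were Atmin (0.997), Lap3 (0.996), Pdia5 (0.995) and Cpsf3 (0.992). The 6 libraries fall into 2 groups, so these values include the group difference.

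Ccr1 (ENSMUSG00000025804, chromosome 9, 123962124 to 123968692, minus strand) encodes a receptor for Ccl3, Ccl5 and related chemokines on monocytes and neutrophils. It was rare, with 45, 81 and 36 counts in WT replicates 1 to 3 and 11, 25 and 0 in IRF8KO replicates 1 to 3. These were 8.75, 5.74 and 4.96 CPM against 1.77, 2.24 and 0 CPM. Each IRF8KO library was below all WT libraries, a separation that 37.9% of all tested genes show in one direction or the other. The log2 fold change was −2.26 (SE 0.94, 95% interval −4.30 to −0.22) with an unadjusted p of 0.033 in the edgeR fit and an adjusted p of 0.11 (Benjamini-Hochberg). Without IRF8KO replicate 2 the log2 fold change was −2.94 and without IRF8KO replicate 3 −1.66, and the adjusted p reached 0.27 without WT replicate 1 (edgeR, Benjamini-Hochberg). Of 14 alternatives that tested Ccr1, 3 put it on the other side of the threshold: DESeq2 gave an adjusted p of 0.048, the edgeR fit without a count filter 0.026 and the edgeR fit with the replicate number as a block 0.035 (Benjamini-Hochberg). Its closest genes in pattern were Psmd5 and Lhfpl2 (Pearson correlation 0.983 over the 6 libraries for both), Ints10 (0.982) and Zfp646 (0.981).

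Ccr2 (ENSMUSG00000049103, chromosome 9, 124101950 to 124113557, plus strand), the receptor of inflammatory monocytes, was close to undetected. Its counts were 1, 12 and 0 in WT and 1, 0 and 2 in IRF8KO, replicates 1 to 3. In WT, 12 of the 13 counts came from replicate 2. The ratio of IRF8KO to WT counts, scaled, was 0.230 with an exact 95% counting interval of 0.0421 to 0.837, which does not cover the spread between libraries; the test without a count filter gave an adjusted p of 0.54 (edgeR, Benjamini-Hochberg). Of 12 monocyte markers, 7 had 0 counts in all WT libraries. The 2 that were tested passed the filter through the IRF8KO libraries, where they are high, so their direction is a description (edgeR, Benjamini-Hochberg; 9.64% of all tested genes were called higher): F13a1 had 0 counts in WT and 29, 52 and 61 in IRF8KO replicates 1 to 3 (adjusted p = 0.0012), and Fn1 had 0, 1 and 1 in WT and 25, 42 and 14 in IRF8KO (adjusted p = 0.0066). The 12 markers summed to 0.827 to 3.31 CPM in WT and to 9.95, 72.8 and 10.1 CPM in IRF8KO replicates 1 to 3. Ms4a4c went the other way, with 7, 21 and 3 counts in WT and 0, 5 and 4 in IRF8KO (IRF8KO over WT 0.289 after scaling, exact 95% bounds from counting 0.121 and 0.623). Ly6c2 and Chil3 had 31 and 386 counts in IRF8KO replicate 2, where Ccr2 had 0, and 0 in the other libraries. Of the 72.8 CPM summed in IRF8KO replicate 2, Chil3 gave 34.6, Cd177 11.8 and Hp 9.33 CPM. The same library held the neutrophil granule transcripts described with Cxcr2. The part of monocytes or neutrophils in these levels was not tested.

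Next to Ccr1, on its other side from Xcr1, lies Ccr1l1, a relative of Ccr1 of unsettled function, which did not pass the filter. It had 0, 7 and 0 counts in WT and 20, 79 and 0 in IRF8KO, so the groups overlapped. The test without a count filter gave a log2 fold change of 3.95 with an adjusted p of 0.0041, and the fits that tested Ccr1l1 with 1 library left out gave adjusted p of 0.055 to 0.19 (edgeR, Benjamini-Hochberg). Ccr1 and Ccr1l1 resemble each other in sequence, and how the counting treated reads of near-identical stretches was not tested.

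Ccr6 (ENSMUSG00000040899, chromosome 17, 8236043 to 8257141, plus strand), the Ccl20 receptor of B cells, T helper 17 cells and some dendritic cells, gave 5 counts in WT replicate 2, 1 in IRF8KO replicate 3 and 0 in the other 4 libraries. A count of 0 allows up to 3 counts, which is 0.584 CPM in WT replicate 1, the shallowest library, and 0.269 CPM in IRF8KO replicate 2. The scaled ratio of IRF8KO to WT was 0.199 with an exact 95% counting interval of 0.00422 to 1.78, so no difference was detectable at this depth. Its ligand Ccl20 had 0 counts in all 6 libraries.

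Ccrl2 (ENSMUSG00000043953, chromosome 9, 111054486 to 111057519, minus strand) was the second most abundant member in both groups. Its level was 41.4, 68.7 and 25.2 CPM in WT replicates 1 to 3 and 57.0, 23.1 and 44.4 CPM in IRF8KO replicates 1 to 3. The groups overlapped, and the spread within each group exceeded the difference of the means (45.1 ± 22.0 and 41.5 ± 17.1 CPM, SD, n = 3). The log2 fold change was −0.13 (SE 0.41, adjusted p = 0.86, edgeR, Benjamini-Hochberg). Its 95% interval ran from −1.03 to 0.77. Within WT, the order of the libraries for Ccrl2 was that of the immediate early genes, with replicate 2 highest and replicate 3 lowest; the part of handling was not tested. Chemerin itself, from the gene Rarres2, had 1 unstranded count over all libraries. Its exons overlap Lrrc61 on the other strand over 33.6% of their length. With counts from 1 strand or the other Rarres2 passed the filter and was not called (log2 fold changes −0.22 and −0.32, adjusted p = 0.72 and 0.61, edgeR, Benjamini-Hochberg). Counts by strand can hold reads of the overlap, which the unstranded count leaves out, so they give no level for Rarres2. Outside the overlap Rarres2 was close to undetected. The genes closest to Ccrl2 in pattern were Tmem230 (Pearson correlation 0.966 over the 6 libraries), Nectin4 (0.957), Ube2f (0.943) and Hspe1 (0.940), with log2 fold changes between 0 and 0.13.

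Cxcr2 (ENSMUSG00000026180, chromosome 1, 74153989 to 74161246, plus strand) encodes the receptor through which neutrophils follow Cxcl1 and Cxcl2. It had 0 counts in all 3 WT libraries, and 10, 46 and 16 counts in IRF8KO replicates 1, 2 and 3, or 1.61, 4.13 and 1.74 CPM. Every IRF8KO library was above the limit that 0 counts allow in WT, at 0.584, 0.212 and 0.414 CPM for replicates 1 to 3. Against a floor of 3 counts over the WT group, Cxcr2 was at least 23.9-fold higher in IRF8KO. This bound was 14.9-fold without IRF8KO replicate 2 and 11.2-fold without WT replicate 2. The adjusted p was 0.0071 (edgeR, Benjamini-Hochberg), a description, since the gene passed the filter through IRF8KO alone. The level stayed low, far below that of Cx3cr1 in the same libraries.

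The library with the highest Cxcr2 value also had the most neutrophil markers. Of 12 neutrophil markers, 1, 3 and 2 were detected in WT replicates 1 to 3, and 8 had 0 counts in all WT libraries. In IRF8KO replicates 1, 2 and 3 the markers detected were 4, 11 and 4. IRF8KO replicate 2 had 1350 counts of S100a8, 637 of S100a9, 883 of Ngp, 650 of Camp and 393 of Ltf, genes of neutrophil granules and cytosol. The same 5 genes had 5, 0, 0, 0 and 0 counts in IRF8KO replicate 1, and 0, 1, 0, 2 and 0 in IRF8KO replicate 3. Others of the 12 were not limited to replicate 2: Mmp9 had 19, 11 and 0 counts in IRF8KO replicates 1 to 3 and 0 in WT, and Il1r2 had 3, 6 and 10 in IRF8KO and 0, 4 and 0 in WT. The 12 markers summed to 651, 732 and 1000 CPM in WT and 1290, 1370 and 871 CPM in IRF8KO replicates 1 to 3. Most of each sum was Csf3r, a growth factor receptor gene that was not called (794 ± 183 CPM in WT, 1050 ± 213 in IRF8KO, SD, n = 3). The genes closest to Cxcr2 in pattern were Mrc1, a mannose receptor of border macrophages (Pearson correlation 0.996 over 6 libraries), Mrpl33 (0.995), Gramd1b (0.994) and Arhgef2 (0.994). Of 11 border macrophage markers, 5, 5 and 6 were detected in WT and 7, 9 and 9 in IRF8KO replicates 1 to 3, with a sum of 3710 to 4910 CPM in IRF8KO against 609 to 834 CPM in WT, while Lyve1 and Cd209f had 0 counts throughout. Most of the WT sum was Stab1 (mean 692 CPM). Most of the IRF8KO sum was Stab1 (1950 CPM) and Pf4 (1880 CPM), the latter also a platelet marker. Folr2 had 2 counts in each group, and Clec10a had 0 in WT and 13 in IRF8KO. The part of neutrophils or border macrophages in the level of Cxcr2 was not tested.

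**Figure D2:**
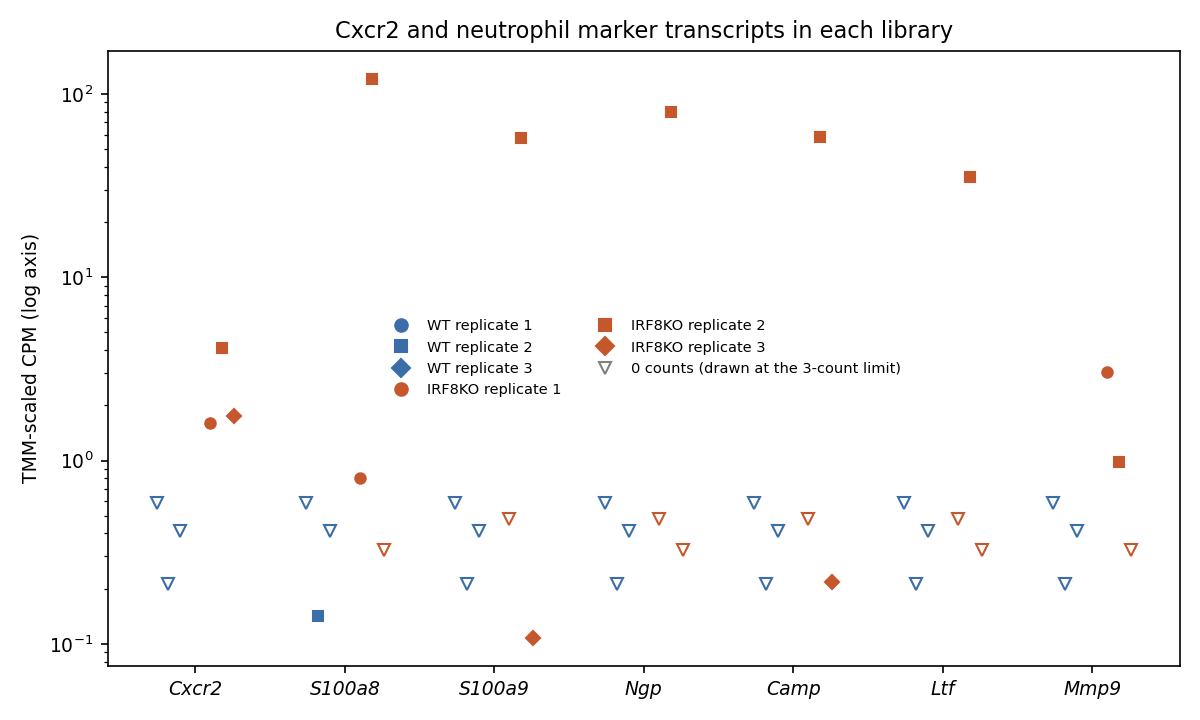
TMM-scaled CPM (log axis) of Cxcr2 and 6 neutrophil marker transcripts in each library, with open triangles for 0 counts at the 3-count limit. Cxcr2 lies at 1.61 to 4.13 CPM in the 3 IRF8KO libraries, while S100a8, S100a9, Ngp, Camp and Ltf are high in IRF8KO replicate 2 alone.

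Cxcr4 (ENSMUSG00000045382, chromosome 1, 128588199 to 128592293, minus strand), which holds leukocytes in the bone marrow through Cxcl12, was rare and did not pass the filter. It had 0, 9 and 0 counts in WT replicates 1 to 3 and 5, 16 and 21 in IRF8KO replicates 1 to 3, or 0, 0.637 and 0 CPM against 0.803, 1.44 and 2.28 CPM. All IRF8KO libraries were above all WT libraries, narrowly for IRF8KO replicate 1. The scaled ratio of IRF8KO to WT counts was 4.65 with an exact 95% counting interval of 2.23 to 10.9, which leaves out the spread between libraries. The test without a count filter gave a log2 fold change of 2.48 with an adjusted p of 0.22 (edgeR, Benjamini-Hochberg). All WT counts came from replicate 2; the edgeR fit without it gave a fitted log2 fold change of 6.58, which then depends on the prior count, with an adjusted p of 0.071 (Benjamini-Hochberg).

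Most of the wider receptor family was at low counts. Of 23 chemokine receptor genes, 19 had any count and 6 were tested. The edgeR fit called 3 of the 6, 2 higher and 1 lower, with a median log2 fold change of −0.79. Over all tested genes 19.1% were called and the median was −0.11. Both higher calls passed the filter through the IRF8KO libraries, where they are high, so the count, the median and the tests of those genes are descriptions and support no direction. The call outside the members was Ackr3, an atypical receptor that takes up Cxcl12. Ackr3 had 0, 21 and 0 counts in WT replicates 1 to 3 and 289, 379 and 202 in IRF8KO, or 46.4, 34.0 and 21.9 CPM in the latter. Its log2 fold change was 5.68 (SE 0.85, adjusted p = 8.6e-04, edgeR, Benjamini-Hochberg), and without WT replicate 2, the only WT library with counts, Ackr3 was at least 135-fold higher against a floor of 3 counts over the other WT libraries. In IRF8KO both receptors of Cxcl12 thus had counts in every library, Ackr3 at 10.2 ± 3.66 and Cxcr4 at 0.833 ± 0.409 CPM per kb. Cxcr3, a chemokine receptor of activated T cells, had 3.51 ± 1.88 CPM in WT against 1.26 ± 0.542 CPM in IRF8KO and was not called (adjusted p = 0.20, edgeR, Benjamini-Hochberg). Ackr2, a scavenger of inflammatory chemokines, had 6, 9 and 9 counts in WT and 0 in IRF8KO, at least 8.02-fold lower against a floor of 3 counts over the IRF8KO group. It did not pass the filter, and the test without one gave an adjusted p of 0.025, while the fits that tested Ackr2 with 1 library left out gave 0.065 to 0.11 (edgeR, Benjamini-Hochberg). Its bound was 4.66-fold without IRF8KO replicate 2 and 5.24-fold without IRF8KO replicate 3. Ccr4, Ccr7, Ccr8 and Cxcr1 had 0 counts in all libraries.

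**Figure D3:**
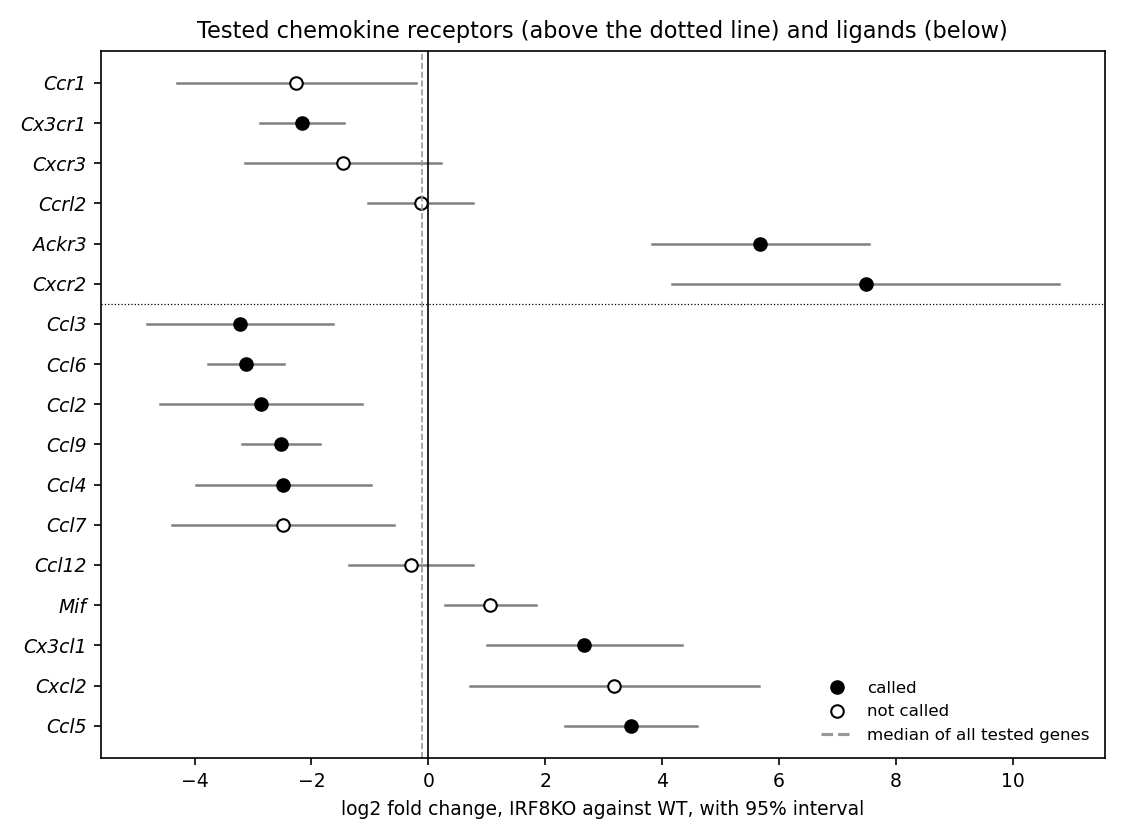
Log2 fold changes of IRF8KO against WT with 95% intervals for the 6 tested receptors (above the dotted line) and 11 tested ligands (below), filled where called. The dashed line is the median of all tested genes, −0.11. Cx3cr1 and Ccr1 lie to the left and Ackr3 and Cxcr2 to the right; the fitted value of Cxcr2, which has 0 counts in WT, depends on the method's prior count.

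Ligands of the members were measured in the same cells. Of 19, 15 had counts and 11 were tested, of which 5 were called lower and 2 higher (edgeR, Benjamini-Hochberg), with a median log2 fold change of −2.48. Over all tested genes, 9.46% were called lower and 9.64% higher and the median was −0.11; the ligands were listed with earlier results of these data known, so their count is a description. Cx3cl1, the ligand of Cx3cr1, was higher in IRF8KO where its receptor was lower, at 1.56, 0.212 and 1.38 CPM in WT and 5.78, 7.0 and 6.29 CPM in IRF8KO replicates 1 to 3. Its log2 fold change was 2.67 (adjusted p = 0.030, edgeR, Benjamini-Hochberg), and the call was lost in 5 of the 6 fits that left out 1 library, all but that without WT replicate 3, with an adjusted p of up to 0.11 (edgeR, Benjamini-Hochberg). It was also lost with library size alone (log2 fold change 2.21, adjusted p = 0.086). Cx3cl1 stayed rare in both groups. With 8, 3 and 10 counts in WT replicates 1 to 3, the WT libraries alone would not have passed the filter. The test of Cx3cl1 is therefore a description.

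Ligands of Ccr1 moved in both directions. Ccl6 fell 8.67-fold, from 208, 248 and 318 CPM in WT replicates 1 to 3 to 26.8, 30.9 and 31.5 CPM in IRF8KO, and Ccl9 fell 5.77-fold, from 73.7, 105 and 121 CPM to 18.5, 14.4 and 19.1 CPM. Neither overlapped between groups. Ccl5 rose from 1.36, 1.35 and 3.86 CPM to 24.2, 19.8 and 28.1 CPM (log2 fold change 3.46). The adjusted p of Ccl6, Ccl9 and Ccl5 were 4.0e-05, 2.1e-04 and 8.6e-04 (edgeR, Benjamini-Hochberg), and each kept its call in all fits that left out 1 library. Ccl5 had a log2 fold change of 4.17 without WT replicate 3. Ccl3 and Ccl4 were called lower with log2 fold changes of −3.23 and −2.48, but overlapped: Ccl3 was at 134, 267 and 21.6 CPM in WT replicates 1 to 3 and 25.8, 7.45 and 12.4 CPM in IRF8KO. Ccl3 lost its call without IRF8KO replicate 3 (adjusted p = 0.084), and Ccl4 without WT replicate 2 or IRF8KO replicate 2 or 3 (up to 0.15; edgeR, Benjamini-Hochberg). Without WT replicate 2 their log2 fold changes were −2.37 and −1.54, and without IRF8KO replicate 1 −3.82 and −3.32. WT replicate 3, with few immediate early transcripts, had the lowest WT level of both genes. The part of handling in these levels was not tested.

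Of the ligands of Ccr2, Ccl2 showed the same overlap, with 24.5, 79.8 and 4.27 CPM in WT and 7.70, 3.14 and 4.34 CPM in IRF8KO replicates 1 to 3. Its log2 fold change was −2.87 with an adjusted p of 0.026 (edgeR, Benjamini-Hochberg), and without WT replicate 2 it was −1.52 with an adjusted p of 0.20. The call was also lost without each of the IRF8KO libraries in turn, and with limma-voom (log2 fold change −2.41, adjusted p = 0.12, Benjamini-Hochberg). Ccl7 (log2 fold change −2.48, adjusted p = 0.066) and Ccl12 (−0.29, adjusted p = 0.71) were not called in the same edgeR fit. Ccl7 was called in 3 of the 12 alternatives that tested it, and without WT replicate 2 its log2 fold change was −1.18 (adjusted p = 0.51, edgeR, Benjamini-Hochberg). Ccl12 in IRF8KO, at 93.3, 56.5 and 85.2 CPM, lay inside the WT range of 27.7 to 160 CPM.

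Ligands of Cxcr2 were rare. Cxcl1 had 0 counts in the WT libraries and 21, 9 and 17 in IRF8KO replicates 1 to 3, at least 15.6-fold higher against a floor of 3 counts over the WT group. Ppbp, a platelet chemokine, had 0 in WT and 5, 26 and 10 in IRF8KO, at least 13.6-fold higher. Without WT replicate 2 these bounds were 7.30-fold and 6.37-fold, and that of Ppbp was 8.58-fold without IRF8KO replicate 2. Neither passed the filter, and without one both were called (adjusted p = 0.0019 and 0.0067, edgeR, Benjamini-Hochberg). The 4 fits that tested Cxcl1 with 1 library left out gave adjusted p of 0.013 to 0.055, the highest without WT replicate 2 (edgeR, Benjamini-Hochberg). Cxcl1 could pass the filter in those fits only by being high in IRF8KO, so these values are descriptions. Cxcl2 had 0, 14 and 0 counts in WT and 26, 59 and 16 in IRF8KO (log2 fold change 3.18, adjusted p = 0.070, edgeR, Benjamini-Hochberg) and was not called. It was called in 5 of the 12 alternatives that tested it, including DESeq2 and the fit without WT replicate 2, where no WT counts remain. Cxcl2 passed the filter through the IRF8KO libraries, where it is high, so these tests are descriptions. Cxcl3 and Cxcl5 had 0 counts in all libraries. For Cxcr4, Cxcl12 had 8 counts in WT replicate 3 and 1 in IRF8KO replicate 1. Mif, another ligand of Cxcr4, was at 24.7 to 61.6 CPM in WT and 67.1 to 88.4 CPM in IRF8KO, with no overlap; it missed the threshold (log2 fold change 1.06, adjusted p = 0.056, edgeR, Benjamini-Hochberg) and was called in 7 of 15 alternatives, DESeq2 and limma-voom among them.

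Of 36 genes that act with the receptors in signalling, 32 were tested, with 9 called lower and 2 higher (edgeR, Benjamini-Hochberg) and a median log2 fold change of −0.31. Over all tested genes, 9.46% were called lower and 9.64% higher. The split of the calls rested on single libraries: it was 1 lower and 1 higher without IRF8KO replicate 3, 3 and 1 without IRF8KO replicate 1, and 12 and 9 without WT replicate 3. The listed subunit genes of the phosphoinositide 3-kinase that G proteins switch on, Pik3cg, Pik3r5 and Pik3r6, were all called lower. The catalytic subunit gene Pik3cg fell 3.28-fold and the regulatory subunit gene Pik3r6 fell 2.34-fold, from 178, 183 and 209 CPM in WT replicates 1 to 3 to 88.4, 68.5 and 86.2 CPM in IRF8KO. Elmo1, which works with Dock2 to activate the motility GTPase Rac, fell 2.64-fold. Adam17, a protease that sheds fractalkine from the cell surface, fell 5.74-fold, from 122, 133 and 42.7 CPM to 12.2, 29.9 and 9.54 CPM. Gng5, a G-protein gamma subunit, rose 4.13-fold, from 23.2, 24.4 and 29.8 CPM to 108, 82.2 and 129 CPM, and Rgs14, which switches off inhibitory G proteins, rose 2.78-fold. Their adjusted p were 0.010, 0.0076, 0.011, 0.0051, 6.4e-04 and 0.014 in that order (edgeR, Benjamini-Hochberg). Gng5 and Adam17 kept their calls whichever library was left out. The log2 fold change of Adam17, −2.52, was −1.93 and −1.66 with counts from 1 strand or the other and −3.18 without IRF8KO replicate 2. Pik3r6 lost its call without IRF8KO replicate 3, Pik3cg and Elmo1 without IRF8KO replicate 1 or 3, and Rgs14 without any 1 of WT replicates 1 and 2 and IRF8KO replicates 1 and 3, with adjusted p of up to 0.053, 0.086, 0.095 and 0.088 (edgeR, Benjamini-Hochberg). Pik3r5 lost its call without IRF8KO replicate 2 or 3 (adjusted p of up to 0.12, edgeR, Benjamini-Hochberg). Without IRF8KO replicate 3 none of the listed kinase subunit genes was called.

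By position, 4 of the 7 members lie on chromosome 9, as do 14 of the 23 family genes; 2 lie on chromosome 1 and 1 on chromosome 17. Ccr1 and Ccr2 are 133257 bases apart. Exons of 6 members overlap no other annotated gene, and those of Cx3cr1 do so over 1.73% of their length.

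Promoter windows from RefSeq (GRCm38.p6; 250 bases before to 50 after each start) were matched for all 7 members, 10 windows in all, and searched on both strands for motifs of IRF8 and its partner PU.1. None of the 10 windows held the ETS-IRF composite element (GGAA, any 2 bases, GAAA), the interferon-stimulated response element (GAAA, any 2 bases, GAAA) or the PU.1 core (GAGGAAGT). Of all 32851 windows, 2.72%, 3.44% and 3.20% held them, so no match says only that these letters are not in these windows. The shorter ETS core GGAA, which is part of the composite element and of the PU.1 core and was added after the search, was in all 10 windows and in 96.0% of all windows. Sequence is shown for the called members, Cx3cr1 and Cxcr2, with each GGAA or its complement TTCC in capitals. For Cxcr2 it is the stretch before the annotated first exon, chr1:74153744-74153988 (plus strand), with 5 ETS cores. For Cx3cr1 the window lies inside an exon of 1 annotated transcript, so only the 30 bases around the core nearest the RefSeq start are given, chr9:120068326-120068355 (minus strand).
Cxcr2: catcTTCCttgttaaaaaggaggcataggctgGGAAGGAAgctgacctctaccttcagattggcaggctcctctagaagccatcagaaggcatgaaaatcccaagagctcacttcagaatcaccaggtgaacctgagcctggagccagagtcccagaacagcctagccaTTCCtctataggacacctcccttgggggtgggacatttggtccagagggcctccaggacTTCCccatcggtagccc
Cx3cr1: agggtaccacacaGGAAaccagatgctatt

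Across 15 other ways to process the counts, Cx3cr1 kept its call in every one, with log2 fold changes from −2.64 to −1.99 and adjusted p of at most 0.021 (Benjamini-Hochberg; edgeR, DESeq2 or limma-voom). Cxcr2, which had to be high in IRF8KO to pass the filter, was called in the 12 that tested it, a description and no support for its rise, and did not pass the filter in the other 3, which counted 1 strand or asked for 10 counts in every library. Ccrl2 was called in none of the 15. Ccr1 was negative in all 14 that tested it and called in 3. Its IRF8KO libraries alone would not have passed the main filter, so this too is a description.

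**Figure D4:**
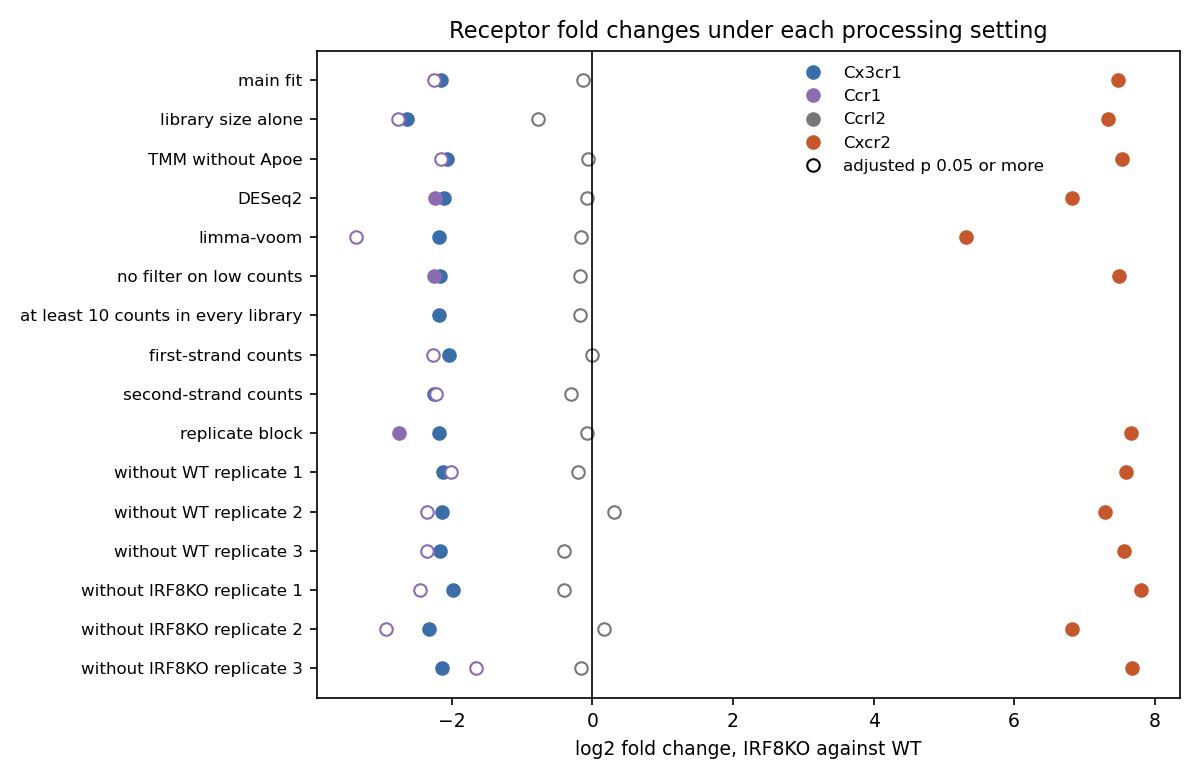
Log2 fold changes of IRF8KO against WT for Cx3cr1, Ccr1, Ccrl2 and Cxcr2 in the main fit and 15 alternatives, filled where the adjusted p is under 0.05. Cx3cr1 is filled in every row, Ccrl2 in none and Ccr1 in 3; Cxcr2 is missing from the 3 rows where it did not pass the filter.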

How the data were processed

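The deposited files hold raw counts per gene, 1 library each, in the layout STAR writes: 4 summary lines, then for each gene an unstranded count and 1 count for each strand. Per the submitters' processing notes, STAR 2.5.2b, Picard 2.17.11, Subread, featureCounts and bcl2fastq were used and the genome build was mm10; the annotation release is not given in the sources used here. The unstranded count was used, and the summary lines were left out. Identifiers were matched to GENCODE M21 (GRCm38) for 49326 of 49585 genes, which gave symbols, positions and union exonic length.

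The test was edgeR 4.0.16 under R 4.3.3 (filterByExpr with a minimum count of 10, TMM scaling, quasi-likelihood F test, genotype as the only term), with Benjamini-Hochberg adjustment over all 11041 tested genes and calls under 0.05. 1 result is not reported here. Alternatives used DESeq2 1.42.0 and limma 3.58.1. The fit was tested on simulated data. Log2 CPM for pattern correlations had a prior count of 2, over genes averaging 10 CPM or more. A library with 0 counts is bounded by 3 counts, and intervals are at 95%. The rule for named genes outside the members took the members' ligands, called genes of the family and signalling lists averaging 1 CPM or more (at most the 6 with the smallest p), the genes closest in pattern, and marker genes beside a member's result. Ccr1l1, Ackr2, Cxcr3, the family genes at 0, Pik3r5, Rac1 and the single markers named were picked after their values were seen. The members and lists were chosen with earlier results of these data known. Libraries within a group differed beyond sampling noise (chi-square per degree of freedom of at least 9.14).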

Additional observations from a re-analysis of the deposited data

How the results depend on the processing

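No call of a member was reversed in 15 alternatives, which for Cxcr2, without counts in WT, could not happen. Leaving out 1 library moved the number of called genes from 2109 to between 910 (without IRF8KO replicate 3) and 4003 (without WT replicate 3), ligand calls from 7 to between 3 and 10, and signalling calls from 11 to between 2 and 21. Member calls stayed at 2 and family calls at 3 in those 6 fits. Cxcr2 and Ackr3 passed the filter through the IRF8KO libraries, where they are high. Only the call of Cx3cr1 therefore bears on how stable these counts are. Without a filter on low counts, 6 family genes and 12 ligands were called; the cause was not tested. With at least 10 counts in every library, 1 member and 1 family gene were called, and with first-strand or second-strand counts 1 member, since Cxcr2 then failed the filter. Rac1, not called in the main fit, reversed to −1.03 with first-strand counts; 51.4% of its exonic length overlaps another gene. With the replicate number as a block, member calls went from 2 to 3, as Ccr1 gained a call with an adjusted p of 0.035 (edgeR, Benjamini-Hochberg). The numbers do not pair the libraries: deviations of same-numbered libraries from their group means correlated at −0.26, 0.328 and 0.114 across genes. Ccr2, Ccr6 and Cxcr4 did not pass the main filter, and 12 of 13, 5 of 5 and 9 of 9 of their WT counts came from replicate 2.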
